A study of Rattus norvegicus with 21 samples.

Results

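The step from 500 to 1000 mg/kg of piperonyl butoxide (PBO) was examined in rat liver by setting the 3 arrays labelled with the higher dose against the 3 arrays labelled with the lower one. These 6 arrays were chosen by their titles out of the 21 arrays of the series, and the comparison ran over all probe sets other than array controls. All animals of the PBO study were male Sprague-Dawley rats dosed by mouth for 7 days. The controls (0 mg/kg) received 0.5% methyl cellulose, and the dosed groups received PBO at 500, 1000 or 1500 mg/kg, with 3 animals and 3 arrays in each of the 4 groups. Livers were kept in RNAlater and whole-liver total RNA was hybridised to short oligonucleotide arrays. The labels give no age for the animals and no time of day for the sampling. They call the replicates biological without naming the animals, so the errors measure the spread between these samples.

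PBO is an insecticide synergist that inhibits cytochromes P450, and in rodent liver it is known to induce drug-metabolising enzymes. CAR and PXR, nuclear receptors activated by many foreign chemicals, switch on cytochromes P450, transferases and transporters. The aryl hydrocarbon receptor (AhR) drives Cyp1a1, and NRF2 drives antioxidant and conjugation genes and, under stress, genes of the proteasome, the complex that degrades ubiquitin-tagged proteins. Male rat liver expresses a set of genes, such as the steroid hydroxylase Cyp2c11, under pulses of growth hormone acting through STAT5b. The comparison of neighbouring doses asks which of these programmes still moved between the low and the middle dose.

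The signals are MAS5 intensities on a common scale. Over the 12 PBO arrays the median signal lay between 94.3 and 114. Changes are given as differences of group means of log2(signal + 16), which understates the change of weak signals, with the standard error (SE) of a limma fit over all 12 arrays and n = 3 per group. Adjusted p-values come from limma with the Benjamini-Hochberg method over the 18625 probe sets that entered the fit, and a probe set passed below 0.05. The summed signal of 11 hepatocyte markers was 348305 to 399818 at 500 mg/kg and 327929 to 346570 at 1000 mg/kg, without overlap, and albumin, Alb, read at least 51250 on these 6 arrays. The ratio of 3' to 5' signal of Actb, a measure of RNA integrity, was 2.61 to 2.83 at 500 mg/kg and 2.38 to 2.50 at 1000 mg/kg. The groups do not overlap in that ratio (two-sided exact permutation p = 0.1, the smallest that 3 against 3 arrays can give). For Gapdh the ratios were 1.12 to 1.19 and 1.11 to 1.13 (two-sided exact permutation p = 0.2). The part of RNA integrity in the differences given here was not tested.

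Between 500 and 1000 mg/kg 2 probe sets passed, both lower at 1000 mg/kg, among 18625 tested. They were Stac3, an adaptor protein best known from calcium release in skeletal muscle, and the unnamed probe set 1384357_at. They make up 0.0107% of the probe sets tested. No probe set passed in the upward direction, where in limma 529 had an unadjusted p under 0.05 (2.84%), beside 466 lower (2.50%). Represented by 1 probe set each, 1 of 10670 genes passed (0.00937%). The middle of the distribution lay at 0: the median gene differed by -0.01, and the 5th and 95th percentiles were -0.48 and 0.46. A mean change of at least 2-fold was seen in 75 genes higher (0.703%) and 66 genes lower (0.619%). In 811 genes (7.60%) all 3 animals at 1000 mg/kg lay above all 3 at 500 mg/kg, and in 824 (7.72%) all lay below; together 15.3% of genes were apart in this sense. The neighbouring steps, which share the 500 or the 1000 mg/kg arrays with this one, had 89 passing probe sets from 0 to 500 mg/kg (0.478%) and 224 from 1000 to 1500 mg/kg (1.20%). The median SE of a gene was 0.21.

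**Figure D1:**
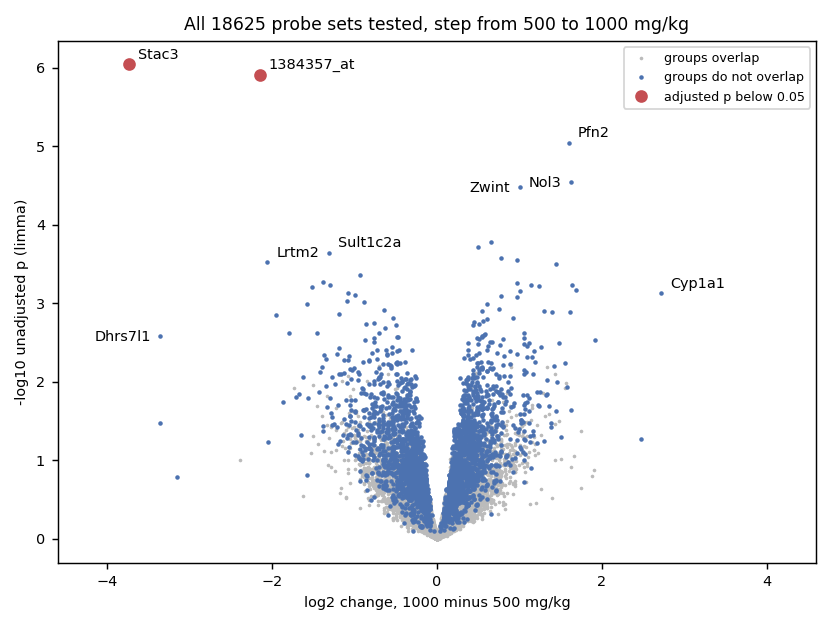
Each point is 1 of 18625 probe sets, with the log2 change from 500 to 1000 mg/kg on the horizontal axis and -log10 of the unadjusted limma p on the vertical axis. Blue points have groups that do not overlap, and the 2 red points, Stac3 and 1384357_at, are those with an adjusted p below 0.05. Pfn2, Nol3 and Zwint come next, on the side of higher signal.

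Stac3 fell by 3.73 ± 0.43 (13.3-fold, adjusted p = 0.01138). Its signals were 5025, 3380 and 3347 at 500 mg/kg and 182.6, 176 and 626.9 at 1000 mg/kg. The highest animal at 1000 mg/kg thus lay far below the lowest at 500 mg/kg. Control signals were 12954, 14503 and 13784, and those at 1500 mg/kg were 153.7, 88.46 and 45.26. Each dose group lay below the one before it, with no overlap between any neighbours. The neighbouring steps were -1.83 ± 0.43 (adjusted p = 0.09873) from 0 to 500 mg/kg and -1.50 (adjusted p = 0.09653) from 1000 to 1500 mg/kg. The middle step did not pass as different from the first (difference -1.90 ± 0.74, adjusted p = 0.9999). The change of Stac3 lay between -4.31 and -3.43 when single arrays of the compared groups were left out. Its adjusted p was then above the threshold without any 1 of PBO 500 replicates 1, 2 and 3 (0.0864, 0.119 and 0.119) and PBO 1000 replicates 1 and 2 (0.0513 and 0.0698).

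The promoter of the named gene is shown because it is the one that passed. The window runs from 250 bases before to 50 bases after the RefSeq start of Stac3, on the plus strand at chr7:65228225-65228524 of GRCr8. TTCNNNGAA, the core of the element that STAT proteins bind, was searched on both strands; it reads the same on either strand. These letters are not in the window, which therefore has no capitals.
Stac3: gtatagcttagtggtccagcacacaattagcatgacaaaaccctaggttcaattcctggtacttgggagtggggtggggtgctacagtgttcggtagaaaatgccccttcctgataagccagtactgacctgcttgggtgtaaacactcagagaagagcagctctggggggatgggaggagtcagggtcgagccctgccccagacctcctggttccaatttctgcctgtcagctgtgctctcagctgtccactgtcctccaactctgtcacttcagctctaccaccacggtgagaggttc
The same core was found in 1 of 11 promoters of male-predominant genes (9.09%) and in 8.68% of 27457 promoters.

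The probe set 1384357_at, which has no gene symbol in the annotation used, fell by 2.15 ± 0.25 (4.43-fold, adjusted p = 0.01138). Its signals were 271.7, 313.2 and 337.3 at 500 mg/kg and 92.26, 49.02 and 38.74 at 1000 mg/kg. The values at 1000 mg/kg lie below the median signal of the arrays, 99.3 to 106 in that group. At 0 mg/kg the signals were 265.5, 267.1 and 249.3, and at 1500 mg/kg they were 138.6, 179.4 and 202.5. It was lowest at the middle dose and rose again by 1.37 from 1000 to 1500 mg/kg (adjusted p = 0.02541). This probe set was the 1 of 18625 (0.00537%) whose middle step differed from the step above it (difference -3.51 ± 0.44, adjusted p = 0.04232), while 6.13% had an unadjusted p under 0.05. That call was lost in 18 of 22 alternative settings (adjusted p up to 0.403), among them each array left out except PBO 1000 replicate 1. The fall lost its call without PBO 500 replicate 1, 2 or 3 (adjusted p = 0.0864, 0.122 and 0.136), without PBO 1000 replicate 2 or 3 (0.0698 and 0.068), and with only the 6 compared arrays in the fit (0.075).

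Among genes that were higher at 1000 mg/kg without passing, Pfn2, a profilin that binds actin monomers, came first. Its signals were 138.9, 93.53 and 104.5 at 500 mg/kg and 476.7, 281.6 and 369.1 at 1000 mg/kg. The groups lie clear of each other, with a change of 1.60 ± 0.23 (3.02-fold, adjusted p = 0.05549). The second probe set of Pfn2 differed by 0.71. From 1000 to 1500 mg/kg Pfn2 rose by 1.77 (adjusted p = 0.006897), to 1271, 1116 and 1527. Nol3, an inhibitor of apoptosis, had 367.8, 230.6 and 295.8 at 500 mg/kg and 978.5, 689.7 and 1204 at 1000 mg/kg. All animals at the higher dose were above those at the lower, with a change of 1.62 ± 0.26 (3.07-fold, adjusted p = 0.1223). Zwint, a kinetochore protein, had 6974, 6347 and 6639 at 500 mg/kg and 15993, 11682 and 12536 at 1000 mg/kg. These groups too were apart, by 1.00 ± 0.16 (adjusted p = 0.1223). Without PBO 1500 replicate 3, the array farthest from its group mean, the adjusted p was 0.0257 for Pfn2, 0.0496 for Nol3 and 0.0103 for Zwint, and 10 probe sets passed in all. The root mean square deviation from the group mean was 0.495 for that array and 0.290 to 0.313 for the 6 arrays of the step.

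Nol3, Zwint and Rexo2, a mitochondrial oligoribonuclease, passed in both neighbouring steps. Nol3 rose by 2.06 from 0 to 500 mg/kg (adjusted p = 0.001464) and by 1.57 from 1000 to 1500 mg/kg (adjusted p = 0.01344). Zwint rose by 1.54 (adjusted p = 4.05e-04) and 0.74 (adjusted p = 0.04556), and Rexo2 by 0.61 (adjusted p = 0.01227) and 0.63 (adjusted p = 0.01215). In the middle step Rexo2 differed by 0.50 ± 0.10 (adjusted p = 0.49), from 3658, 3442 and 3791 to 5660, 4982 and 4851. In none of these 3 genes did the middle step pass as different from the first (adjusted p = 0.9999 for each). Slc66a3 followed the same order, with 132.3, 194.6 and 217.5 at 500 mg/kg, 603, 378.9 and 303.4 at 1000 mg/kg, and a change of 1.14 ± 0.25 (adjusted p = 0.5717).

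Of the other genes nearest to passing upward, 4 had a mean at 500 mg/kg below the control mean. Acsf2, an acyl-CoA synthetase, had control signals of 1291, 1040 and 881.5, fell to 512.2, 465 and 455.1 at 500 mg/kg (-1.12, adjusted p = 0.02269) and stood at 865.8, 874.1 and 1140 at 1000 mg/kg. Its change over the middle step was 0.97 ± 0.20 (adjusted p = 0.49), and the difference between the steps, 2.10 ± 0.34, did not pass (adjusted p = 0.06981). The lysosomal ubiquitin ligase Rnf152, the glycosyltransferase Pomgnt2 and the muscle anchoring protein Nrap also had lower means at 500 than at 0 or 1000 mg/kg. Over the middle step they differed by 1.44 ± 0.30, 0.97 ± 0.21 and 1.64 ± 0.36 (adjusted p = 0.49, 0.5717 and 0.5717). Their first steps, -0.83, -0.86 and -1.18, did not pass (adjusted p = 0.3372, 0.1281 and 0.2558). The differences between their steps did not pass either (adjusted p = 0.3898, 0.2525 and 0.3889). Nrap signals were low throughout the step, 31.74, 26.79 and 18.52 against 96.81, 100.6 and 145.9.

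Among genes that were lower at 1000 mg/kg without passing, Sult1c2a, a sulfotransferase, came first. Its signals were 3810, 4451 and 5156 at 500 mg/kg and 1674, 2434 and 1372 at 1000 mg/kg. The groups do not overlap (-1.31 ± 0.26, adjusted p = 0.49), and the controls, at 3012, 4157 and 3649, lie with the lower dose. Pik3c2g, a class II phosphoinositide 3-kinase of liver, had 489.8, 458.6 and 627.8 at 500 mg/kg and 204.4, 283.5 and 140.2 at 1000 mg/kg. Slc22a8, the organic anion transporter OAT3, had 4456, 2751 and 3311 at 500 mg/kg and 1696, 2294 and 1091 at 1000 mg/kg. Both were lower in every animal of the higher dose, with changes of -1.30 ± 0.29 and -1.08 ± 0.24 (adjusted p = 0.5717 for each). Hao2, a peroxisomal hydroxy acid oxidase, differed by -0.64 ± 0.15 in this step (adjusted p = 0.6499) and fell by 1.96 in the next (adjusted p = 2.43e-04).

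The leucine-rich repeat protein Lrtm2 had 224, 243.4 and 114.6 at 500 mg/kg and 23.24, 72.28 and 16.17 at 1000 mg/kg. The difference, -2.06 ± 0.42 (adjusted p = 0.49), takes it below the median signal of the arrays. The transcription factor Nfatc4 (-1.09 ± 0.25) and the sulfurtransferase-like gene Tstd1 (-1.19 ± 0.29) had adjusted p of 0.6171 and 0.6621. The second probe set of Nfatc4 differed by -0.37. Brcc3-ps7 (-1.95 ± 0.48, adjusted p = 0.6621) is named as a pseudogene, so its signal may include that of its parent gene. Dhrs7l1, a short-chain dehydrogenase, differed by -3.36 ± 0.90, nearly as much as Stac3, but did not pass (adjusted p = 0.7987). Its animals were spread widely, at 18391, 4930 and 6699 against 856.8, 1690 and 366.5, and the groups do not overlap.

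**Figure D2:**
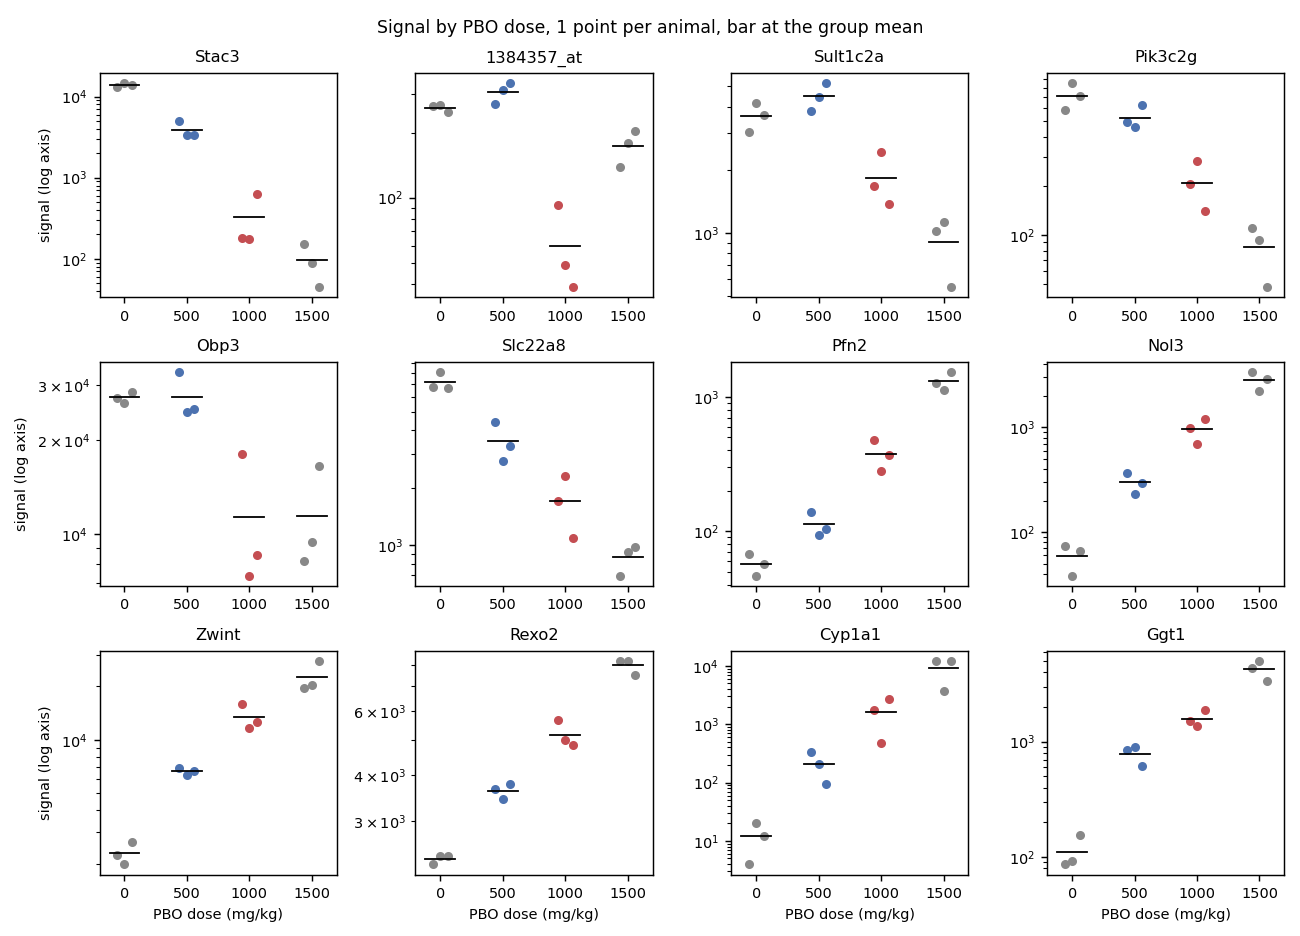
Signal on a log axis against PBO dose in mg/kg, for 12 probe sets, with 1 point per animal and a bar at the mean of each group of 3. In each of the 12 panels the red points (1000 mg/kg) and the blue points (500 mg/kg) do not overlap. Stac3 and 1384357_at are the panels that passed the test of this step.

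A further question was which genes changed less, or differently, over this step than over the first one. For 8 probe sets (0.0430%) the difference between the steps passed, and 783 had an unadjusted p under 0.05 (4.20%). Both steps contain the 500 mg/kg arrays, so an extreme value there enters each with opposite sign. Of the 8, 7 had risen from 0 to 500 mg/kg and 1, the fatty acid desaturase Scd, had fallen. None of the 8 passed in the middle step. The difference between steps stayed past the threshold in all 22 alternative settings for Gsta3, Aldh1a1, Ces2c, Abcc3, Ugt2b1 and 1371076_at. It was lost in 11 of 22 for Scd (adjusted p up to 0.3, for instance without any 1 of the control or PBO 500 arrays) and in 13 of 22 for Ephx1 (up to 0.29, for instance without any 1 of the PBO 500 or PBO 1000 arrays).

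Abcc3, an exporter of conjugates, shows the shape. Its signals were 17.95, 15.69 and 63.28 in controls, 1109, 1525 and 1509 at 500 mg/kg, and 1419, 1521 and 1579 at 1000 mg/kg. The dosed groups overlap, and the middle step was 0.14 ± 0.29 (95% interval -0.49 to 0.77) after a first step of 4.97 ± 0.29 (difference -4.84 ± 0.50, adjusted p = 0.001229). Gsta3, a glutathione S-transferase, differed by 0.31 (95% interval -0.06 to 0.67) after a first step of 4.57 (difference -4.27 ± 0.29, adjusted p = 2.47e-05). The carboxylesterase Ces2c differed by 0.30 (95% interval -0.14 to 0.74) after 4.25, and the retinal dehydrogenase Aldh1a1 by 0.13 (95% interval -0.21 to 0.47) after 3.48. Their differences between steps were -3.95 ± 0.35 (adjusted p = 2.71e-04) and -3.35 ± 0.27 (adjusted p = 1.23e-04).

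Some of these genes were among the strongest signals of the arrays. The glucuronosyltransferase Ugt2b1 stood at 31441, 33239 and 37164 at 500 mg/kg and at 35029, 33614 and 34489 at 1000 mg/kg (0.02, 95% interval -0.41 to 0.45). The epoxide hydrolase Ephx1 stood at 38063, 41741 and 48759 and then at 43126, 40285 and 40021 (-0.05, 95% interval -0.30 to 0.20), and its difference between steps was -1.31 (adjusted p = 0.04653). The unnamed probe set 1371076_at stood at 37128, 34515 and 40706 and then at 40576, 37053 and 40845. The strongest signals on the control arrays were 57972 to 69839, and whether signal near that level still follows RNA amount was not tested. Abcc3 and Gsta3 lay well under it, at no more than 9558 in both groups.

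Scd had 10752, 10273 and 16046 in controls, 91.75, 102.5 and 179.3 at 500 mg/kg, and 86.07, 135.3 and 714.4 at 1000 mg/kg. One animal at 1000 mg/kg was above the rest, and the middle step was 0.73 ± 0.62 (95% interval -0.62 to 2.07) after a fall of -6.48 (difference 7.21 ± 1.08, adjusted p = 0.04371). Cyp3a23-3a1, a PXR-driven cytochrome P450, differed by -0.02 (95% interval -0.23 to 0.20) after a rise of 0.82 (adjusted p = 0.001173), though its difference between steps did not pass (adjusted p = 0.2525). Its signals, 43620, 46258 and 47795 at 500 mg/kg and 46593, 42032 and 47617 at 1000 mg/kg, were as strong as those of Ephx1. Whether signal at that level still follows RNA amount was not tested. Car3, a carbonic anhydrase of male liver, and Nrep had their larger mean change above 1000 mg/kg. Car3 fell by 4.65 from 1000 to 1500 mg/kg (adjusted p = 0.009892) and differed by -0.76 ± 0.70 in the middle step (-1.71 on its second probe set). Nrep fell by 3.31 in that upper step (adjusted p = 0.001064) and differed by -1.07 ± 0.31 in the middle one (adjusted p = 0.8399), at 7196, 8275 and 12767 against 4324, 4781 and 3925. The middle step did not pass as different from the upper one in either gene, by 3.89 ± 1.21 for Car3 and 2.24 ± 0.54 for Nrep (adjusted p = 0.809 for each).

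**Figure D3:**
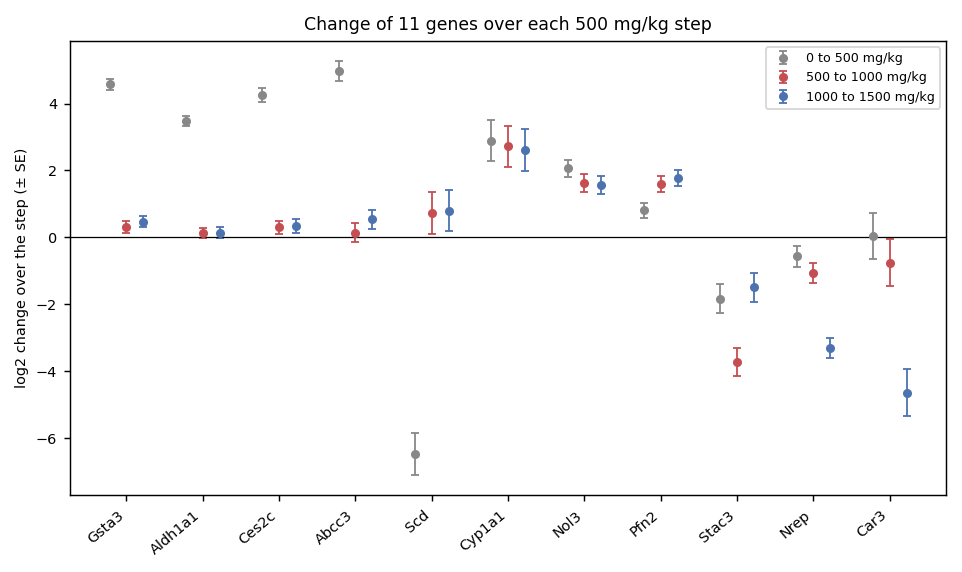
Log2 change of 11 genes over each step of 500 mg/kg, with the SE of the fit (3 animals per group). Gsta3, Aldh1a1, Ces2c and Abcc3 have grey points (0 to 500 mg/kg) between 3.48 and 4.97 and red points (500 to 1000 mg/kg) between 0.13 and 0.31. Cyp1a1 has 3 steps of similar size.

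Cyp1a1, the AhR-driven cytochrome P450, had the largest mean difference among the fixed genes in the upward direction. Its signals were 330.8, 206.7 and 92.76 at 500 mg/kg and 1731, 481.7 and 2742 at 1000 mg/kg. The groups do not overlap, but the animals at each dose differed several-fold, and the change of 2.72 ± 0.62 (6.58-fold) did not pass (adjusted p = 0.5717). The steps before and after were 2.89 (adjusted p = 0.07067) and 2.61 (adjusted p = 0.05866). Cyp1a2, the other main AhR-linked cytochrome P450 of liver, differed by 0.01 (95% interval -0.57 to 0.60). Of 6 AhR target genes tested 2 had an unadjusted p under 0.05 in the upward direction, Cyp1a1 and the quinone reductase Nqo1, where the share over all genes was 2.96%. The median of the 6 genes was 0.03, beside -0.01 over all genes. Of these 6 genes 2 were apart upward and 1 downward (7.60% and 7.72% of all genes).

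NRF2 targets and enzymes that supply NADPH had 25 genes tested, none of which passed. Their median change was 0.16, beside -0.01 over all genes, with 18 of 25 above 0. In 5 genes (7.60% of all genes) all animals at 1000 mg/kg were above those at 500 mg/kg, and in none below. The gamma-glutamyl transferase Ggt1 had 847.1, 900 and 613 against 1508, 1358 and 1873 (1.00 ± 0.22, adjusted p = 0.5717). Gclm, the regulatory subunit of glutathione synthesis, had 6688, 7379 and 5401 against 7436, 10469 and 8872 (0.46 ± 0.15, adjusted p = 0.8399). Nqo1 had 7376, 10774 and 7885 against 14074, 13430 and 13784 (0.68 ± 0.24, adjusted p = 0.8443). These 3 genes were apart between the groups, as was the carbonyl reductase Cbr1 (0.68 ± 0.26, adjusted p = 0.8692). Gpx2, a glutathione peroxidase, differed by 1.06 ± 0.44 (adjusted p = 0.912) with overlapping groups, 1 animal at 500 mg/kg reading 1228 and the other two 389 and 284.4.

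CAR and PXR targets had a median of 0.18 over 20 genes, with 5 genes apart in the upward direction and none downward (7.60% and 7.72% of all genes). The transporter Slco1a4 had 19638, 19070 and 17884 against 23634, 20358 and 25513 (0.29 ± 0.11, adjusted p = 0.8809). Abcb1a, the P-glycoprotein efflux pump, had 283.3, 308 and 280.1 against 498.7, 417.8 and 621.7 (0.77 ± 0.35, adjusted p = 0.9246). The bile acid sulfotransferase Sult2a2 (2.47 ± 1.16) and Cyp2a1 (0.34 ± 0.16) had adjusted p of 0.9262 and 0.9302. The median of this list ranged from 0.01 to 0.23 over the alternative settings. Probe sets for members of large families such as these may take up signal from related genes.

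Glutathione S-transferases went in both directions. Gsta4, which conjugates lipid peroxidation products, had 12216, 12779 and 15024 against 19466, 18336 and 19578 (0.52 ± 0.18, adjusted p = 0.8443). Gstm7 had 3171, 3124 and 3195 against 2664, 2480 and 2340 (-0.34 ± 0.12, adjusted p = 0.8443), and the microsomal enzyme Mgst3 differed by -0.34 ± 0.13 (adjusted p = 0.8692). The groups were apart in each of these 3 genes. Gstm3 (0.44 ± 0.43) and the placental form Gstp1 (-0.57 ± 0.40) overlapped. Over 19 transferases the median was -0.09, and 0.01 with quantile normalization, so the list had no settled direction. The 29 other cytochromes P450 had a median of -0.13 with 8 genes apart downward (7.72% of all genes) and 2 upward (7.60%), and a median of -0.01 with quantile normalization. The fatty acid hydroxylase Cyp4a1 differed by -0.03 (95% interval -0.53 to 0.48) and the bile acid enzyme Cyp7a1 by 0.32 (95% interval -1.32 to 1.95).

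Among the 36 gene lists, the proteasome had the highest share of members apart between the groups. Of 35 genes tested 22 had all animals at 1000 mg/kg above those at 500 mg/kg (7.60% of all genes did) and 1 had them below. The median change was 0.26, 32 of 35 changes were above 0, and none passed the adjusted test. Per array, the median of the 35 genes relative to the control mean was 0.24, 0.21 and 0.27 at 500 mg/kg and 0.52, 0.41 and 0.56 at 1000 mg/kg, against 0.72, 0.66 and 1.17 at 1500 mg/kg. The list was therefore higher on each array of the higher dose, by amounts small for any single gene. The regulatory subunit Psmd7 had 3087, 3191 and 3200 against 3663, 3789 and 4080 (0.28 ± 0.09, adjusted p = 0.8399). Psmd2, another regulatory subunit, had 3822, 3801 and 3551 against 5313, 4200 and 5073 (0.38 ± 0.13, adjusted p = 0.8443). The core subunit Psmb3 had 10211, 9235 and 8608 against 15348, 11572 and 11095 (0.43 ± 0.15, adjusted p = 0.8443). All 3 were apart between the groups, with changes above the median of the list.

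Psmb9, an interferon-induced catalytic subunit of the immunoproteasome, was the member that lay below, at 1855, 1975 and 2251 against 1463, 1795 and 1109 (-0.50 ± 0.16, adjusted p = 0.8399). The other immunoproteasome subunits Psmb8 and Psmb10, singled out after their values were seen, differed by -0.11 ± 0.25 and -0.09 ± 0.20. They are the 3 members of the list below 0. The median of the whole list ranged from 0.22 to 0.30 over the alternative settings. The number of members with an unadjusted p under 0.05 in the upward direction was 13 (2.96% of all genes). That number was 7, 3 and 7 without PBO 500 replicate 1, 2 and 3, 5 without PBO 1000 replicate 1 or 3, and 20 without PBO 1500 replicate 3. It was 5 without the intensity trend and 21 with only the 6 compared arrays. The summed erythroid signal and the Actb ratio were also apart between these groups, and their part in the proteasome values was not tested.

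**Figure D4:**
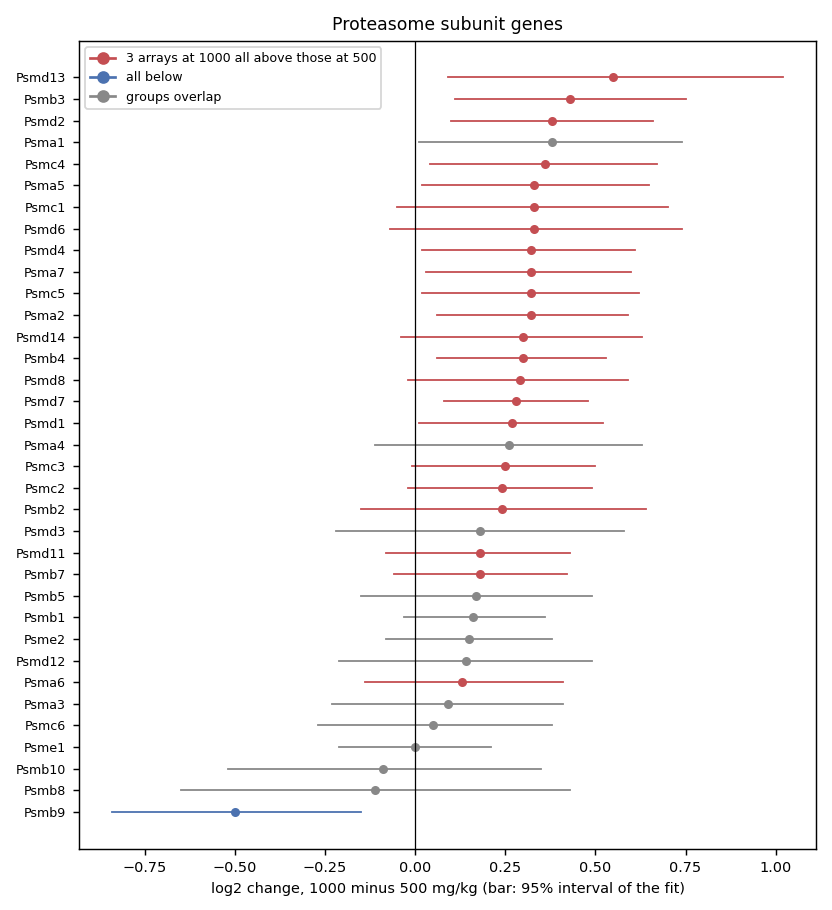
Log2 change from 500 to 1000 mg/kg of 35 proteasome genes, with the 95% interval of the fit. Red marks the 22 genes whose animals at 1000 mg/kg were all above those at 500 mg/kg, blue the 1 gene with all below (Psmb9), and grey the genes with overlapping groups.

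Proteasome promoters are shown because most members lay on 1 side and NRF2 is a known regulator of the complex. Capitals mark TGACNNNGC, the core of the antioxidant response element, searched on both strands; it overlaps the AP-1 site where TGACTCA is followed by GC. Among 31 proteasome promoters, 5 (16.1%) hold it, beside 12.2% of 27457 promoters and 4 of 22 (18.2%) among NRF2 targets. The share in the proteasome list is near that of all promoters. The 3 genes below, chosen for the matches, differed by 0.27 ± 0.12 (Psmd1), 0.24 ± 0.18 (Psmb2) and 0.17 ± 0.15 (Psmb5). The windows are on GRCr8 with RefSeq starts, written 5′ to 3′ on the gene's strand: Psmd1 at chr9:94157721-94158020 (plus), Psmb2 at chr5:144254808-144255107 (plus) and Psmb5 at chr15:32047330-32047629 (minus). The first match begins at position -165, -68 and -60 from the start of the gene.
Psmd1: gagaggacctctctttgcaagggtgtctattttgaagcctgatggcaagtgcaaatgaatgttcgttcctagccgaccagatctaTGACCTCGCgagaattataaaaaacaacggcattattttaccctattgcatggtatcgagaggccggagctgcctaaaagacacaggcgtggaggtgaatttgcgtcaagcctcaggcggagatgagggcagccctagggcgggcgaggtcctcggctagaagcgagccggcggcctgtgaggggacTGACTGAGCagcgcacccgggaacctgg
Psmb2: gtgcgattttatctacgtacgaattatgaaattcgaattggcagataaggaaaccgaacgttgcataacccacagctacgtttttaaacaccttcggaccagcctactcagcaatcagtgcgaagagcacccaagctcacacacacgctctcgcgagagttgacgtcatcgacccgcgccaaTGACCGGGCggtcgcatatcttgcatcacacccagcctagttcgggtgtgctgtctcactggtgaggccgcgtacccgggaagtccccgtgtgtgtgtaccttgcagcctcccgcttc
Psmb5: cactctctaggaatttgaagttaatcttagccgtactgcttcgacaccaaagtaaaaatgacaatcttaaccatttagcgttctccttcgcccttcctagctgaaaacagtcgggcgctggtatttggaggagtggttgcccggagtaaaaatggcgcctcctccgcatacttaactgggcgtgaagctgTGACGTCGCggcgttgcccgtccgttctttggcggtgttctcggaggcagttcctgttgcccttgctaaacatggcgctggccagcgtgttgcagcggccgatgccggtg
A match describes letters in the window, and binding was not measured.

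Genes known to be higher in male rat liver were mostly lower at 1000 mg/kg. Of 14 tested 7 were apart downward and 2 upward, beside 7.72% and 7.60% of all genes, and Stac3 was the 1 that passed. The median was -0.22, and -0.12 with quantile normalization, where 4 genes were above 0 in place of 2. Stac3, Dhrs7l1 and A1bg are open to doubt as members: the first 2 were placed in the list with their fall known, and A1bg is known in rats as female-predominant. Without these 3 genes 5 of 11 were apart downward and 1 upward, with a median of -0.18. The other members were also chosen with earlier results of these data known, so these counts are descriptive and not independent support. Obp3, a urinary lipocalin, had 32919, 24482 and 25022 against 18031, 7366 and 8544 (-1.38 ± 0.30, adjusted p = 0.5717). Mup5, a major urinary protein, had 8237, 8715 and 5936 against 5512, 5312 and 5389 (-0.48 ± 0.13, adjusted p = 0.7987). Both were lower in all 3 animals of the higher dose. Cyp2c11 had 35942, 39226 and 40213 against 30311, 28735 and 11742 (-0.82 ± 0.35, adjusted p = 0.912), with 1 animal far below the other two. The female-predominant A1bg had 49.58, 147 and 114.3 against 159.9, 179.8 and 519.8 (1.24 ± 0.47, adjusted p = 0.8672). The transporter Slco1a1, male-predominant, was apart in the upward direction (0.20 ± 0.16).

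Growth hormone signalling, 17 genes, had a median of -0.28, with 5 genes apart downward and 1 upward (7.72% and 7.60% of all genes). Stat5b, the mediator of pulsatile growth hormone, had 230.9, 289.2 and 352.8 against 193.2, 215.5 and 209.5 (-0.45 ± 0.18, adjusted p = 0.9049). Igfbp2, a binding protein that growth hormone lowers, had 68.57, 86.84 and 164.5 against 215.8, 232 and 330.1 (1.22 ± 0.46, adjusted p = 0.8672). Igfbp3 (-0.54 ± 0.35) and Igfals (-0.45 ± 0.47) were apart downward too. Changes over the whole list ran from -1.31 to 1.62, both in genes not named here. Of the 17 genes 3 were above 0, and none passed the adjusted test. The median of this list ranged from -0.30 to -0.21 over the alternative settings.

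Several core clock genes were among the members with small unadjusted p. Nr1d2, the repressor REV-ERB beta, had 290, 288 and 407.1 against 532.1, 1131 and 816.8 (1.24 ± 0.28, adjusted p = 0.5717). Cry1 had 780.4, 862.7 and 634 against 602, 364.5 and 419.9 (-0.72 ± 0.23, adjusted p = 0.8399). Bhlhe40 had 192.5, 252.7 and 371.8 against 167.3, 132 and 117 (-0.86 ± 0.30, adjusted p = 0.8443). The groups were apart in these 3 genes, Nr1d2 upward and Cry1 and Bhlhe40 downward. Npas2, a partner of BMAL1 in activation, differed by -0.88 ± 0.34 (adjusted p = 0.8701), with overlapping groups. Of 17 clock genes 1 was apart upward and 3 downward (7.60% and 7.72% of all genes). Clock genes follow the time of day in liver, and its part in these values was not tested.

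Lipid genes differed in both directions. The 20 genes of cholesterol synthesis and uptake had a median of 0.17 with 16 above 0. Their per-array medians relative to control were 0.76, 0.81 and 0.02 at 500 mg/kg and 0.83, 0.71 and 0.70 at 1000 mg/kg, so PBO 500 replicate 3 stood apart. The median over settings ran from 0.01 to 0.35. Squalene epoxidase, Sqle, had 1319, 1451 and 777.7 against 1439, 1703 and 1526 (0.44 ± 0.19, adjusted p = 0.9236), where that animal was again the low one. In fatty acid synthesis Elovl6, an elongase, had 506.8, 480.6 and 400.4 against 991.8, 503.5 and 1317 (0.90 ± 0.28, adjusted p = 0.8399). Acaca, the first committed enzyme, had 1487, 1498 and 1726 against 2276, 2161 and 2248 (0.50 ± 0.20, adjusted p = 0.8692), and the groups were apart. The lipogenic regulator Srebf1 was apart in the other direction, at 3537, 3207 and 3521 against 2614, 2512 and 2566 (-0.41 ± 0.32, adjusted p = 0.9993). Of 40 PPARalpha targets and fatty acid oxidation genes 5 were apart upward and 5 downward (7.60% and 7.72% of all genes). Vnn1, a pantetheinase, differed by 0.61 ± 0.19 and the medium-chain dehydrogenase Acadm by -0.27 ± 0.09 (adjusted p = 0.8399 for each).

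Genes of hepatocyte metabolism had medians slightly below 0. Of 14 urea cycle and glutamine genes 6 were apart downward and 1 upward (7.72% and 7.60% of all genes), with a median of -0.15. Gls2, liver glutaminase, had 4442, 5173 and 4217 against 3332, 3483 and 3105 (-0.47 ± 0.13, adjusted p = 0.7987). The mitochondrial aspartate-glutamate carrier Slc25a13 had 8300, 8116 and 8488 against 7075, 7659 and 6430 (-0.24 ± 0.11, adjusted p = 0.9236). Of 29 genes of gluconeogenesis and amino acid breakdown 8 were apart downward (7.72% of all genes) and none upward, led by Kynu of tryptophan breakdown, at 9699, 10031 and 9810 against 7365, 8141 and 8374 (-0.31 ± 0.10, adjusted p = 0.8399). The median of these 29 genes was -0.12, and -0.04 with quantile normalization, so its size depends on the scaling. Bhmt, which remethylates homocysteine, differed by -0.37 ± 0.13 and Agxt, a glyoxylate-detoxifying transaminase, by -0.42 ± 0.15 (adjusted p of 0.8443 and 0.8607). Both were apart. The taurine transporter Slc6a6, which fell by 3.36 from 0 to 500 mg/kg (adjusted p = 0.01707), differed by -1.33 ± 0.56 with overlapping groups (adjusted p = 0.912). On its second probe set the difference was -0.15.

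Secreted hepatocyte proteins had 15 of 40 genes apart downward and 3 upward (7.72% and 7.60% of all genes), with a median of -0.14. That median was -0.01 with quantile normalization, where 14 genes were above 0 in place of 5, so the size of this shift depends on the scaling. The 3 genes apart upward were the complement protein C5 (0.23 ± 0.33), the lipopolysaccharide-binding protein Lbp, at 5360, 4454 and 6119 against 6488, 7098 and 7172 (0.39 ± 0.14, adjusted p = 0.8443), and the iron hormone hepcidin, Hamp. Hamp had 17671, 3946 and 10679 against 24568, 18516 and 28041 (1.36 ± 0.51, adjusted p = 0.8672). The clotting factor F5 (0.03) and Serpind1 (0.02) were the other two above 0. Respiratory chain genes had a median of -0.09 over 41 genes, with 9 apart downward (7.72% of all genes) and none upward, and -0.04 with quantile normalization. Albumin, Alb, differed by -0.14 (95% interval -0.46 to 0.18).

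None of 15 p53 targets and none of 24 immediate early and stress genes had an unadjusted p under 0.05 in limma, beside 5.63% of all genes. Of the p53 targets 1 was apart upward and none downward (7.60% and 7.72% of all genes). Of the immediate early and stress genes 2 were apart upward and 2 downward. Cdkn1a (-0.64 ± 0.47), Gadd45b (0.74 ± 1.01), Ccnd1 (0.28 ± 0.81) and Mki67 (-0.03 ± 0.36) overlapped between the groups, and their intervals are wide: that of Mki67 runs from -0.80 to 0.74. In the cell cycle list 4 of 43 genes were apart upward, near the 7.60% of all genes, and none downward. The median of 0.12 turned to -0.02 without PBO 500 replicate 1 or PBO 1000 replicate 3, so the list had no settled direction. Mcm6, of the replicative helicase, had 78.03, 18.4 and 75.19 against 98.91, 158 and 283.3 (1.45 ± 0.48, adjusted p = 0.8399). The mitotic kinase Plk1 had 27.97, 25.4 and 26.13 against 23.98, 110.8 and 113.4, with 1 animal at the level of the lower dose (1.03 ± 0.44, adjusted p = 0.912). Among ATF4 targets Psat1, of serine synthesis, had 250.3, 193.5 and 316.2 against 487, 631.9 and 560.9 (1.11 ± 0.31, adjusted p = 0.8114), with the groups apart.

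**Figure D5:**
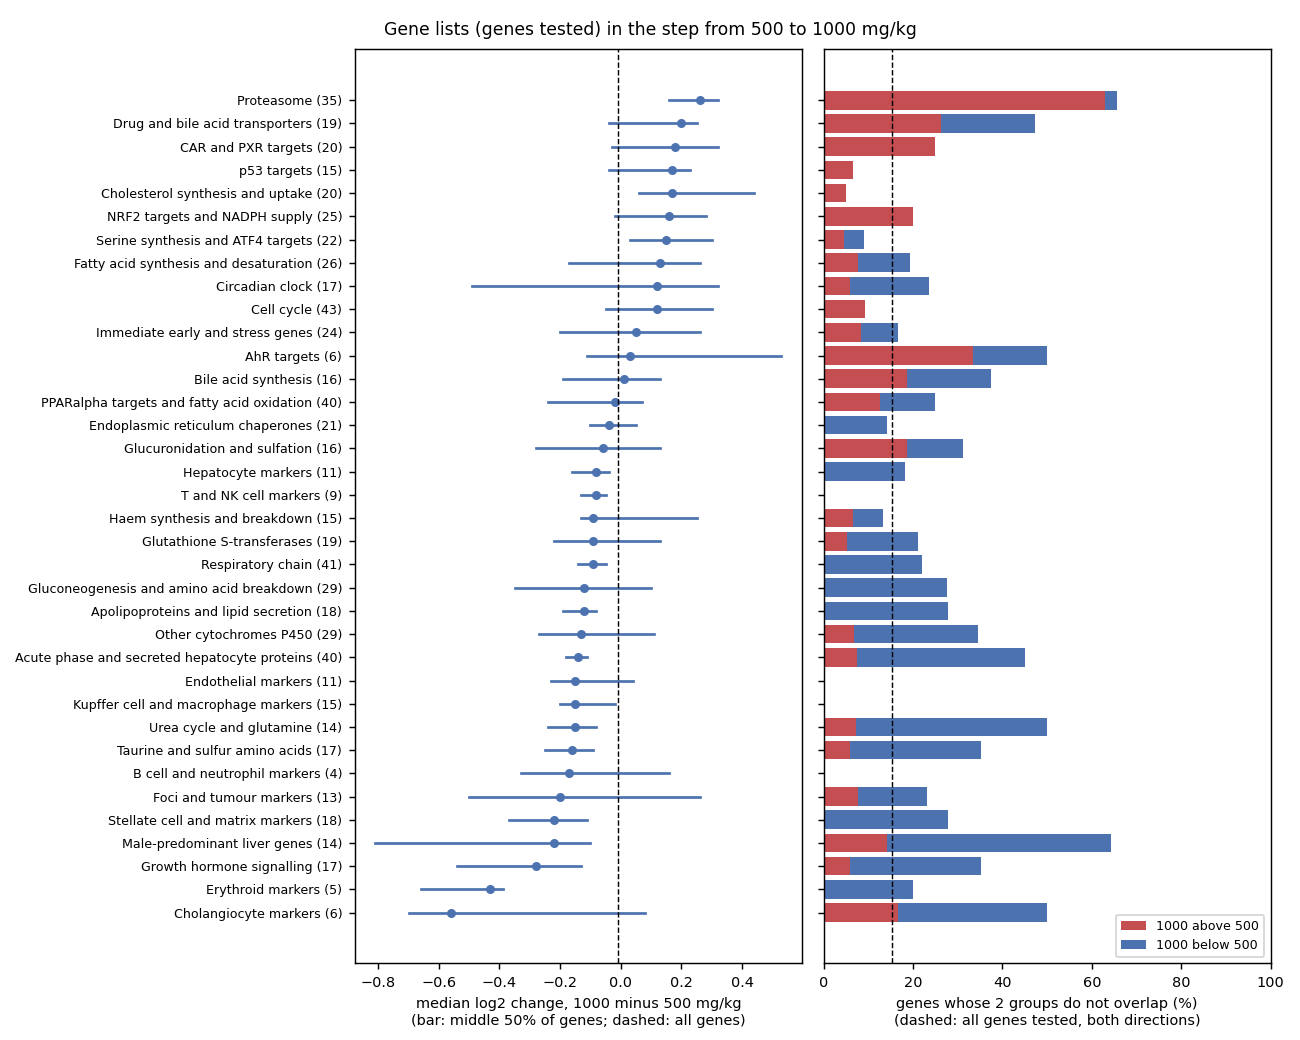
Left, the median log2 change from 500 to 1000 mg/kg of each of 36 gene lists, with the number of genes tested in brackets, a bar over the middle 50% of its genes and a dashed line at the median of all genes (-0.01). Right, the percentage of genes in each list whose groups do not overlap, with a dashed line at the 15.3% of all genes. The proteasome list has the highest median (0.26).

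Of markers of other cells, those of the red cell lineage had a lower summed signal. The summed signal of the 9 erythroid markers on the array was 17401 to 18771 at 500 mg/kg and 9989 to 13539 at 1000 mg/kg, without overlap. Most of that sum was beta globin, the 1 member apart among the 5 tested. Its gene, Hbb, had 13528, 16161 and 16240 against 10146, 10853 and 8167 (-0.66 ± 0.23, adjusted p = 0.8443). The haemoglobin-stabilising protein Ahsp differed by -0.96 ± 0.38 (adjusted p = 0.8961) and the anion exchanger Slc4a1 by 0.88 ± 0.48 (adjusted p = 0.9644), both with overlapping groups, and 4 of the 9 erythroid markers on the array were too weak to be tested. In whole tissue, fewer cells of a type and less RNA per cell cannot be told apart. Of the bile duct markers, osteopontin, Spp1, had 201.6, 234.1 and 160.7 against 118.7, 53.67 and 43.56 (-1.37 ± 0.40, adjusted p = 0.8366), and the keratin Krt19 differed by -0.72 ± 0.30 (adjusted p = 0.912). The adhesion molecule Epcam was apart upward (0.27 ± 0.13, adjusted p = 0.9324), and 2 of the 6 bile duct markers tested were above 0. The summed signals of the 8 bile duct markers on the array overlapped, at 2052 to 2218 and 1855 to 2498. Of 18 stellate cell and matrix markers 5 were apart downward (7.72% of all genes), among them the collagen crosslinker Lox, at 254.1, 349.4 and 434.2 against 88.42, 98.14 and 100.2 (-1.67 ± 0.59, adjusted p = 0.8443). The summed signals of the 20 such markers on the array were 15582 to 19071 at 500 mg/kg and 13607 to 15813 at 1000 mg/kg. No Kupffer cell, endothelial, T and NK cell or B cell and neutrophil marker was apart in either direction, among 15, 11, 9 and 4 tested. Over all genes 15.3% were apart, so lists this short would hold few such genes in any case.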

How the data were processed

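Liver RNA of the 12 PBO arrays was analysed. The authors deposited linear probe set intensity values. Per the submitters' processing notes these are MAS5 signals, with no release given in the sources used here. On all arrays the mean after trimming 2% at each end was alike. Of 31099 probe sets 57 were controls, 20826 had 1 symbol, 436 several and 9780 none (20758 matched by Entrez identifier). Values were taken as log2(signal + 16), and probe sets above the 40th percentile of mean value were fitted with limma 3.58.1 in R 4.3.3 (group means of 4 doses, eBayes with trend, 8 residual degrees of freedom). A gene was its tested probe set with the highest mean. Groups were called apart when their 3 values did not overlap. Members, lists (36, with 795 distinct genes) and fixed genes were chosen with earlier results of these data known. The naming rule took 10 rises and 10 falls, those passing first and then groups apart with the smallest p, the fixed genes, and up to 4 members of each list with the smallest p; members named beyond it, including Psmd1, Psmb2, Psmb5 and members listed as apart, were chosen after their values were seen. Cyp2b1, a fixed gene, was not analysed here. Alternatives were other pseudocounts, filters, scalings, models and leaving out each array. The 3 arrays per group limit the precision. Python 3.11.15 and matplotlib 3.10.9 drew the plots.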

Additional observations from a re-analysis of the deposited data

How the results depend on the processing

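No change of a named gene in the step from 500 to 1000 mg/kg that passed under any setting run had its direction reversed. The step had 2 passing probe sets, and 4 with the replicate block (replicate number as a block, with Nol3 and Pfn2 added), 5 with array weights and 0 to 10 with single arrays left out. The count was 0 without PBO 500 replicate 1, 2 or 3 or PBO 1000 replicate 2, where limma gave 930, 806, 843 and 938 probe sets an unadjusted p under 0.05. It was 1 without PBO 1000 replicate 1 or 3, and 10 without PBO 1500 replicate 3. Same-numbered animals shared only a number, with correlations of their deviations of -0.008, -0.015 and 0.005. The difference from the first step had 8 passing probe sets, 20 with array weights, 19 with only the arrays concerned, 6 with the replicate block, and 6 to 19 with single arrays left out (19 without PBO 1500 replicate 3). The difference from the step above had 1, and 0 with a pseudocount of 1, no filter, quantile normalization, median scaling, no trend, the replicate block or only the arrays concerned (906 to 1828 with an unadjusted p under 0.05 in limma). With single arrays left out that count was 0 to 1, with 1 only without PBO 1000 replicate 1. Leaving out an array lowers the number of samples; other causes of these shifts were not tested. With 3 arrays per group, changes near the median SE of 0.21 cannot be resolved, and signals near the array median of about 100 have no detection calls here. Calls in the steps from 0 to 500 and from 1000 to 1500 mg/kg were not run under the alternatives.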
